A study of Mus musculus with 2 samples.

Results

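The BAF complexes, the mammalian SWI/SNF family of chromatin remodelers, were examined through the transcripts of 10 of their subunits. The members were the catalytic ATPases Smarca4 and Smarca2, the scaffold subunits Smarcc1 and Smarcc2, the accessory subunits Smarcd1 and Smarcd3, the ARID subunits Arid1a and Arid1b, the actin-like subunit Actl6a and the PHD-finger subunit Dpf2. They were chosen by gene symbol, and all 10 were found among the 24532 genes of the deposited mouse gene table. Of these, 6 (Smarca4, Smarcc1, Smarcd1, Arid1a, Actl6a and Dpf2) are known from the form of the complex that prevails in embryonic stem cells (ESCs) and are called ESC-type here. The other 4 (Smarca2, Smarcc2, Smarcd3 and Arid1b) are paralogs better known from later lineages or other assemblies, and are called later-lineage.

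BAF complexes use ATP to slide or evict nucleosomes and so open DNA to transcription factors. Each complex takes a single ATPase and a single ARID subunit, and the choice among paralogs differs between cell types. In ESCs, the complex built around Smarca4 (Brg1), Smarcc1 and Arid1a is known to bind near sites of the pluripotency factors Sox2 and Oct4 and to be needed for self-renewal.

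The series held polyA RNA-seq of E14 cells, a widely used mouse ESC line, with 1 library of the wild type (E14 ESC) and 1 of a mutant (Sox2 T258A ESC). In the mutant, alanine replaced threonine at residue 258 of Sox2 in 1 allele, edited by CRISPR-Cas9 from a donor of single-stranded DNA. Mutant cells were grown from individual sorted cells as clones with the MEK and GSK3 inhibitors of 2i medium, kept in serum, LIF and 2i and used after 2i was withdrawn, whereas the parental E14 cells were kept in serum and LIF. The number of clones behind the mutant library is not given in the sources used here. Genotype, clonal selection and culture history therefore cannot be told apart. Each genotype had 1 library, so there was no replicate to check a difference against and no test was made. Intervals given with a ratio are 95% intervals of the read counts (exact binomial, or Wald for sums and for ratios of ratios) and cover counting error only.

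The E14 library had 60263536 gene reads and the T258A library 44609228. The 7 pluripotency markers examined were present in both, with a summed level of 4161 TPM (transcript abundance scaled for transcript length and library size) in E14 and 3858 TPM in T258A, 4 of them higher in T258A and 3 lower. Nanog was at 526.9 TPM in E14 and 251.3 TPM in T258A (log2 -1.07), Pou5f1 at 1725 and 1759 TPM and Sall4 at 84.9 and 129.2 TPM. Sox2 itself was at 372.5 TPM in E14 and 274.2 TPM in T258A, a sum over both alleles that does not check the edit. Markers of other cell types differed between the libraries, and their part in the results was not tested. In bulk RNA, a different number of cells of a type and a different amount of RNA per cell cannot be told apart. The summed TPM of 7 neural markers was 103.6 in E14 and 145.6 in T258A, with 6 of 7 higher in T258A (Nes 6.67 against 36.2 TPM). That of 7 mesendoderm markers was 9.33 and 37.8, with 4 higher and 3 lower (T 0.954 against 14.03 TPM), and that of 5 primitive endoderm markers was 42.9 and 16.3, with none higher. That of 7 cardiac mesoderm markers was 12.4 and 5.37, with 1 higher, and 3 of the 7 (Tbx5, Hand2 and Tnnt2) had no read in T258A. Of 7 fibroblast markers, with sums of 43.1 and 16.6 TPM, 3 were higher (Col1a1, Col1a2 and Col3a1, the last with 15 reads in E14 and 151 in T258A), Thy1 was lower (40.1 against 11.4 TPM), and Dcn, Lum and Postn had no read in either library.

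Transcripts of all 10 members were detected in both libraries, and the ESC-type subunits made up nearly all of the members' signal. Their summed TPM was 570.5 in E14 and 782.3 in T258A, a log2 ratio of 0.46 (0.44 to 0.47). The later-lineage subunits summed to 28.6 TPM in E14 and 40.2 TPM in T258A, a log2 ratio of 0.49 (0.42 to 0.56). The later-lineage subunits thus held 4.78% of the members' TPM in E14 and 4.88% in T258A. The totals of both classes were higher in T258A by a similar factor, while single subunits ranged from 0.749 to 2.81 times their E14 level.

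In E14 the order of TPM, from the highest, was Actl6a, Smarcd1, Smarcc1, Smarca4, Arid1a, Dpf2, Smarcc2, Smarcd3, Arid1b and Smarca2. Every neighbouring pair in that order was separated beyond counting error, which leaves out the exon overlaps of Smarcd3 and Actl6a described below. In T258A, Actl6a was again first, followed by Smarcc1, Arid1a, Smarcd1, Smarca4, Dpf2, Smarcc2, Arid1b, Smarcd3 and Smarca2. Arid1a thus stood above Smarcd1 and Smarca4 in T258A and below both in E14. Among neighbours in T258A, Arid1b and Smarcd3 were not separated by counting error (log2 ratio of their TPM 0.08, -0.08 to 0.25).

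**Figure D1:**
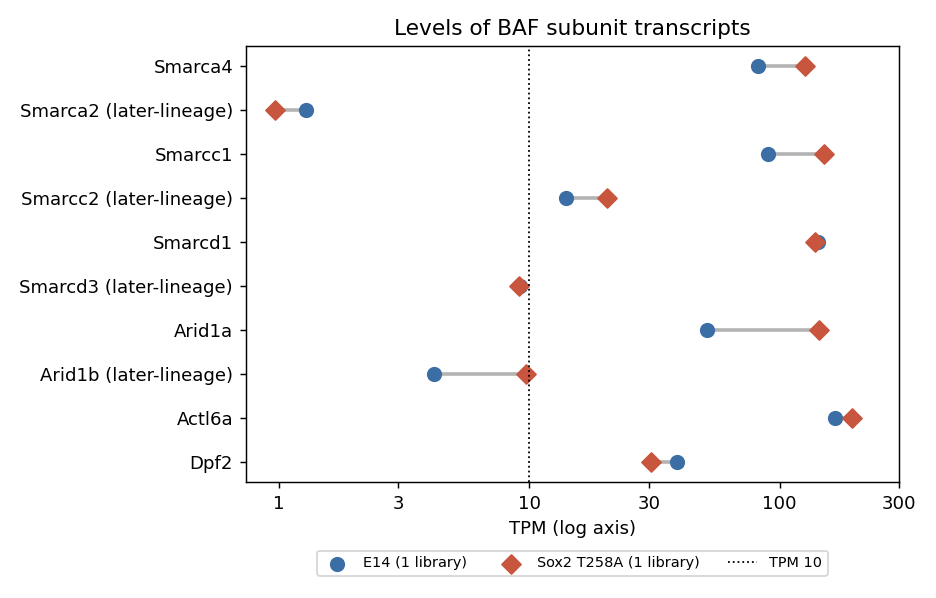
TPM of each BAF subunit (log axis) in the E14 library (circles) and the Sox2 T258A library (diamonds), 1 library each, with a dotted line at TPM 10. The ESC-type subunits lie between 30.7 and 193.8 TPM, the later-lineage ones between 0.961 and 20.4 TPM, and the longest connecting line among the ESC-type subunits is that of Arid1a; the circle of Smarcd3 lies behind its diamond.

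For comparison with all genes, a gene was taken up where its TPM was at least 10 in at least 1 library, which 9094 genes and 7 of the 10 members passed; Smarca2, Smarcd3 and Arid1b did not. Of these 7 members, 5 had a higher TPM in T258A (57.3% of all genes that passed) and 2 a lower one. More than 2-fold higher was 1 member, Arid1a (4.17% of all genes), and none was more than 2-fold lower (4.07% of all genes). More than 1.5-fold higher were 3 members, Smarca4, Smarcc1 and Arid1a (14.2% of all genes), and none was more than 1.5-fold lower (10.5% of all genes). The median log2 ratio of the 7 members was 0.54, beside 0.08 for all genes that passed. With so many reads, an interval that leaves out 0 distinguishes little, since 85.4% of all genes that passed had one, as did 9 of the 10 members.

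**Figure D2:**
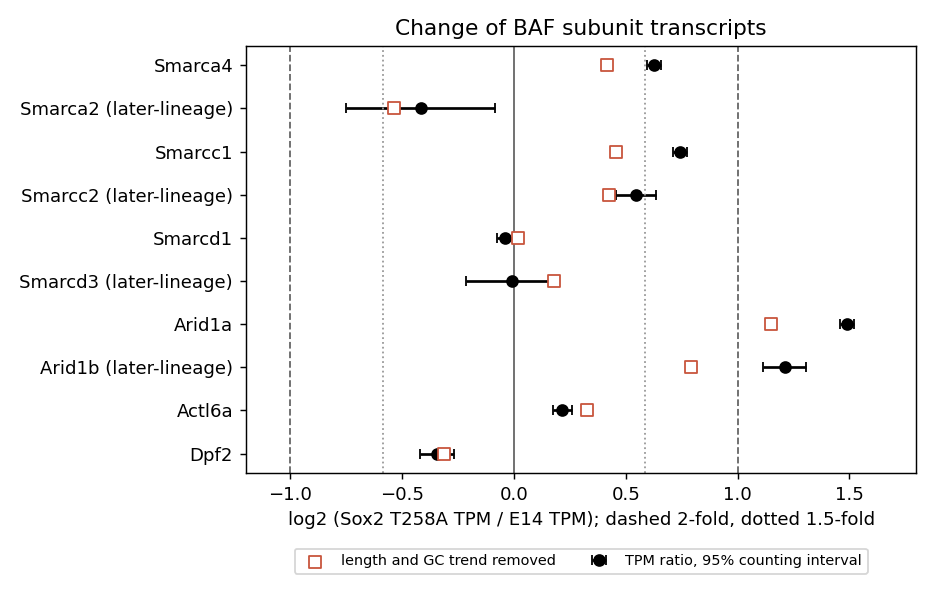
Log2 ratio of TPM, Sox2 T258A over E14, for the 10 BAF subunits as deposited and after removal of the trend on transcript length and GC content, with 95% counting intervals. Arid1a is the highest (1.49 as deposited, 1.15 without the trend), and Smarca2 is the lowest (-0.42 and -0.54).

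The ARID subunits, which bind DNA without strong sequence preference and define the canonical BAF complex, had the highest ratios of the 10. Arid1a (chromosome 4, 133679008 to 133756769, minus strand, GRCm38.p6) had 13149 reads and 51.1 TPM in E14 and 24714 reads and 143.2 TPM in T258A. It was 2.81-fold higher in T258A (log2 ratio 1.49, 1.46 to 1.52), and it stayed above 2-fold in every alternative run, the lowest log2 ratio being 1.15 without the length and GC trend. Arid1b (chromosome 17, 4994297 to 5347656, plus strand) had 1491 reads and 4.18 TPM in E14 and 2311 reads and 9.67 TPM in T258A, a log2 ratio of 1.21 (1.12 to 1.30). Arid1b, whose product takes the place of Arid1a in a complex, was just under the TPM minimum, so its 2.31-fold ratio is not in the counts above. Its log2 ratio was also above 1 under every scaling tried, and was 0.79 without the length and GC trend. The summed TPM of both ARID1 genes was 55.2 in E14 and 152.9 in T258A, and Arid1b held 7.56% and 6.32% of it.

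The ATPase Smarca4 (chromosome 9, 21616106 to 21704230, plus strand) had 16469 reads and 82.1 TPM in E14 and 17023 reads and 126.6 TPM in T258A. Its ratio was 1.54 (log2 0.63, 0.59 to 0.66), just past 1.5-fold, and lay under 1.5-fold with TMM scaling, with CPM, with FPKM and after centring on the median gene. Smarca2 (Brm; chromosome 19, 26605073 to 26778321, plus strand), the alternative ATPase, had 235 reads and 1.28 TPM in E14 and 113 reads and 0.961 TPM in T258A, the lowest level of the 10 in both libraries. Its log2 ratio was -0.42 (-0.75 to -0.09). Smarca4 was 64.0 times as abundant as Smarca2 in E14 and 131.8 times in T258A.

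Both scaffold subunits, which lie in the core of the complex, were higher in T258A. Smarcc1 (chromosome 9, 110132024 to 110240178, plus strand) had 16019 reads and 89.7 TPM in E14 and 17943 reads and 149.9 TPM in T258A. It was 1.67-fold higher (log2 0.74, 0.71 to 0.77). Smarcc2 (chromosome 10, 128459182 to 128490591, plus strand) had 2097 reads and 14.003 TPM in E14 and 2066 reads and 20.4 TPM in T258A, a log2 ratio of 0.54 (0.46 to 0.63). The summed TPM of the pair was 103.7 in E14 and 170.3 in T258A, and Smarcc1 supplied most of it in both.

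The accessory subunits, which link the complex to transcription factors, had nearly level TPM. Smarcd1 (chromosome 15, 99702287 to 99713995, plus strand) had 14094 reads and 141.9 TPM in E14 and 9186 reads and 138.0 TPM in T258A, a log2 ratio of -0.04 (-0.08 to -0.002) whose sign turned to 0.02 once the length and GC trend was removed. Genes of chromosome 15 had a median log2 ratio of -0.14 over 396 genes that passed the TPM minimum. Smarcd3, a subunit known from the heart (chromosome 5, 24592622 to 24624456, minus strand), had 499 reads and 9.18 TPM in E14 and 332 reads and 9.12 TPM in T258A. Its log2 ratio was -0.01 (-0.21 to 0.19), and it was the single member whose interval held 0. The remaining paralog, Smarcd2, was at 59.7 TPM in E14 and 62.4 TPM in T258A, and the sum of the 3 was 210.8 and 209.6 TPM (log2 -0.01, -0.04 to 0.02).

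Actl6a, an actin-like subunit known from proliferating progenitors (chromosome 3, 32708546 to 32726973, plus strand), was the most abundant member in both libraries. It had 10348 reads and 166.8 TPM in E14 and 8054 reads and 193.8 TPM in T258A (log2 0.22, 0.17 to 0.26). Its neuronal counterpart Actl6b had 6 reads in E14 and 7 in T258A. Dpf2, a PHD-finger subunit that binds modified histone H3 tails (chromosome 19, 5896516 to 5912871, minus strand), was the ESC-type subunit with the lowest ratio. It had 4076 reads and 38.95 TPM in E14 and 2153 reads and 30.67 TPM in T258A, a log2 ratio of -0.34 (-0.42 to -0.27). Its paralog Dpf1 was at 12.5 TPM in E14 and 14.7 TPM in T258A, and Dpf3 had 47 reads in E14 and 5 in T258A.

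Exons of Smarcd3 and Actl6a overlap those of genes on the opposite strand, and how strand was used in counting is not given in the sources used here. Chpf2, with 637 reads in E14 and 394 in T258A, covers 37.0% of the exon bases of Smarcd3, and Mrpl47, with 3440 and 1961 reads, covers 22.5% of those of Actl6a. Reads from such overlaps cannot be assigned to one gene, and the values of Smarcd3 and Actl6a are uncertain to that extent.

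The ESC-type and later-lineage subunits were also compared as pairs of paralogs within each library, since a ratio of 2 genes in a library does not depend on library scaling. The ratio of Smarca2 to Smarca4 differed most: it was 0.0156 in E14 and 0.00759 in T258A, a log2 difference of -1.04 (-1.37 to -0.72). That of Arid1b to Arid1a was 0.0818 in E14 and 0.0675 in T258A (log2 difference -0.28, -0.38 to -0.18). In both pairs the later-lineage paralog had the smaller share in T258A.

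That of Smarcc2 to Smarcc1 was 0.156 in E14 and 0.136 in T258A (log2 difference -0.20, -0.29 to -0.10), and the difference was -0.03 once the length and GC trend was removed. That of Smarcd3 to Smarcd1 was 0.0646 and 0.0661 (log2 difference 0.03, -0.17 to 0.24). By counting error alone, 3 of the 4 pairs had a lower later-lineage share in T258A and 1 was not separated. With so many reads this distinguishes little, and no share over other gene pairs was computed. Outside these pairs, the ratio of Dpf1 to Dpf2 went the other way, with Dpf1 at 24.3% of the summed TPM of both in E14 and 32.4% in T258A (log2 difference 0.58, 0.42 to 0.74). That of Smarcd2 to Smarcd1 differed by 0.10 on the log2 scale (0.03 to 0.18), that of Phf10 to Dpf2 by -0.02 (-0.12 to 0.08) and that of Ss18l1 to Ss18 by -1.27 (-1.44 to -1.10). None of the 4 pairs of members had the later-lineage gene above the ESC-type gene in either library.

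**Figure D3:**
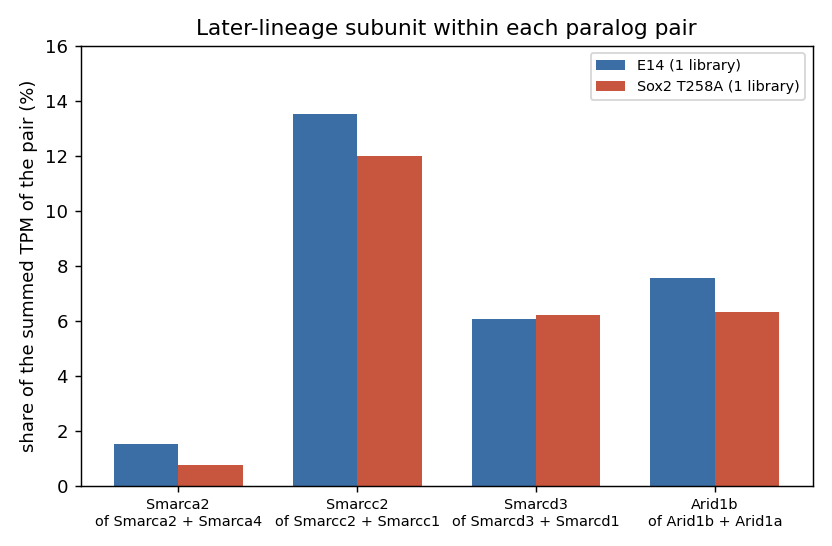
Share of the later-lineage paralog in the summed TPM of each pair, in percent, in the E14 and Sox2 T258A libraries (1 each). The share is 1.54% against 0.753% for Smarca2, 13.5% against 11.99% for Smarcc2, 6.07% against 6.20% for Smarcd3 and 7.56% against 6.32% for Arid1b.

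Members with long transcripts had the higher ratios, and so did long transcripts at large. Over 10 bins of transcript length with equal numbers of genes, the median log2 ratio went from -0.18 in the shortest bin to 0.46 in the longest, which holds Smarca4 (6045 bases) and Arid1a (8175 bases). In the longest bin, 36.7% of genes were more than 1.5-fold higher in T258A and 9.51% more than 2-fold. Among the 303 genes over 8000 bases, Arid1a included, the median was 0.59, with 50.5% past 1.5-fold and 16.8% past 2-fold. Smarcc1 (5717 bases) lay in a bin with a median of 0.31, and Actl6a (2010 bases) in one with a median of -0.01. With the trend on length and GC content removed, 1 member, Arid1a, was more than 1.5-fold higher (log2 1.15; 11.5% of all genes) and it was also the single one past 2-fold (3.55% of all genes). Smarca4 and Smarcc1 then had log2 ratios of 0.42 and 0.46, and the median of the 7 members was 0.42. For Arid1b (11325 bases), the longest member, the length value removed was that at the last of the bins used for the trend. That for Arid1a, also longer than most genes, rested on the longest of those bins as well.

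**Figure D4:**
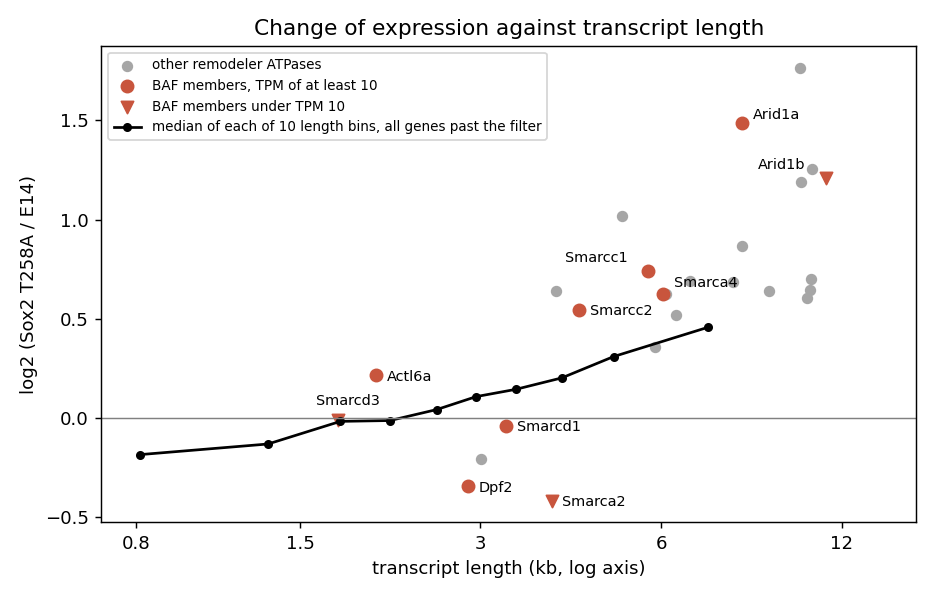
Log2 ratio of TPM, Sox2 T258A over E14, against transcript length (kb, log axis) for the 10 BAF subunits and the 16 other remodeler ATPases that passed the TPM minimum, with the median of each of 10 length bins of all genes that passed the TPM minimum as a line. The line goes from -0.18 to 0.46, and Arid1a (1.49) and Arid1b (1.21) lie above its right end.

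Promoter sequence is shown for Arid1a, the member with the highest ratio, and for the ATPases Smarca4 and Smarca2, whose ratios lay on opposite sides of 1. The RefSeq bases (GRCm38.p6) upstream of the outermost start annotated in RefSeq or GENCODE M21, which for Smarca2 lies before the RefSeq gene start given above, are written 5′ to 3′ on the gene's strand, with CG dinucleotides in capitals, for chr4:133756770-133757019 (minus), chr9:21615919-21616105 (plus) and chr19:26604910-26605049 (plus).
Arid1a: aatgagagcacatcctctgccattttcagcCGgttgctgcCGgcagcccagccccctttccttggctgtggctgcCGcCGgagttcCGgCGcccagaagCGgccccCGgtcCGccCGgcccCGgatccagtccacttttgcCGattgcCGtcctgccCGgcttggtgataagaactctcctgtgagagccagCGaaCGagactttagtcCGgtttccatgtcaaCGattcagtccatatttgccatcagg
Smarca4: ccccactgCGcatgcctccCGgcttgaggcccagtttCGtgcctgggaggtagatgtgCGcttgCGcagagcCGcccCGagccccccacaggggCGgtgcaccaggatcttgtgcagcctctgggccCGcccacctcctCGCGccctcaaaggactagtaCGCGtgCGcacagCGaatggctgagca
Smarca2: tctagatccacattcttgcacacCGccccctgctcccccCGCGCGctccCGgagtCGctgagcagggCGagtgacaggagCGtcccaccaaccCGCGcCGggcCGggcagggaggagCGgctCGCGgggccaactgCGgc
These stretches hold 18 CG dinucleotides in 250 bases for Arid1a, 15 in 187 bases for Smarca4 and 16 in 140 bases for Smarca2. Windows ran from 250 bases before to 50 after an annotated start, and not every annotated start has one. Those of Smarcd3 (chr5:24601953-24602252) and Arid1b (chr17:4994824-4995123) lie inside the gene spans given above, so the outer starts of these genes were not searched. The 11 windows of the 10 members held 20 to 48 CG dinucleotides with a median of 33, beside a median of 7 over all 32851 windows. Arid1a has a further annotated start, not shown above, whose window held 36 CG dinucleotides, beside 22 in the window of its outermost start. The member windows thus held more CG than the median window, whether the transcript was higher or lower in T258A. The windows of all genes were not limited to expressed genes, so this does not set the members apart from other expressed genes. The Sox-type letters CATTGT or CTTTGT, searched on both strands, were in 28.6% of all windows and in 1 of the 11 member windows, that of Smarcd1. There CTTTGT lies at positions 4 to 9 after the start, within chr15:99702280-99702305 (plus), shown with the letters in capitals.
Smarcd1: ggttccggttCTTTGTgcagctgcag
A match of these letters is a description and not a binding site.

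The other subunits of the family were given by 3 lists, and 15 of their 19 genes passed the TPM minimum. None of the 15 was more than 2-fold higher (4.17% of all genes that passed) or lower (4.07%). More than 1.5-fold higher were 2 of the 15, near the share of all genes (14.2%). The median log2 ratio was 0.24, beside 0.08 for all genes that passed. Of the other canonical subunits, 7 of 9 had a higher TPM in T258A (57.3% of all genes that passed). Actb, the actin that joins Actl6a in the complex and has a cytoskeletal role besides, was at 1299 TPM in E14 and 2117 TPM in T258A (log2 0.70). The core subunit Smarcb1 was at 132 and 149 TPM (log2 0.18), and Bcl7b had the lowest ratio among the 9 that passed (log2 -0.08). Of the 3 under the minimum, Ss18l1 (7.44 and 4.57 TPM, log2 -0.70) and Dpf3 (0.772 and 0.0601 TPM, log2 -3.68) were lower in T258A.

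Of the 4 subunits of the polybromo form (PBAF), Pbrm1, which reads acetylated histones, was at 30.1 TPM in E14 and 49.96 TPM in T258A (log2 0.73, and 0.36 without the length and GC trend). Arid2, the ARID subunit of that form, was at 25.9 and 36.5 TPM (log2 0.50, and 0.01 without the trend). Phf10, a PHD-finger paralog of Dpf2, was at 105 and 81.6 TPM (log2 -0.37), the lowest of the list. Its ratio was near that of Dpf2, while Dpf1 was higher in T258A (log2 0.24). Of the non-canonical form, 2 genes passed the TPM minimum, Gltscr1l (log2 0.42) and Brd9 (log2 0.17), and Gltscr1, just under it at 5.70 TPM in E14 and 9.86 TPM in T258A, had a log2 ratio of 0.79.

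ATPases of other remodeler families were mostly higher in T258A as well. Of 18 genes, 16 passed the TPM minimum, and 15 of these had a higher TPM in T258A (57.3% of all genes that passed). Their median log2 ratio was 0.67. More than 1.5-fold higher were 13 (14.2% of all genes), and more than 2-fold higher were 4 (4.17% of all genes). The 4 were Chd7 (7.54 TPM in E14 and 25.6 in T258A, log2 1.77), Chd9 (log2 1.26), Atrx (log2 1.19) and Smarcad1 (log2 1.02). The others past 1.5-fold were Smarca5, Smarca1, Chd1, Chd2, Chd4, Chd6, Chd8, Srcap and Ep400, with log2 ratios from 0.61 for Chd6 to 0.87 for Chd8. Chd1l was the lowest of the 16 (log2 -0.21), and Chd5, under the minimum at 9.21 and 6.32 TPM, had a log2 ratio of -0.54. Many of these ATPases have long transcripts, and 36.7% of genes in the longest length bin were more than 1.5-fold higher. With the length and GC trend removed, 4 ATPases were more than 1.5-fold higher (11.5% of all genes) and 1 more than 2-fold higher (3.55% of all genes). Their median was then 0.25. The 1.5-fold ratio of Smarca4 was close to those of Smarca5 (log2 0.62), an ATPase of the ISWI family, and Chd4 (log2 0.69), an ATPase of the NuRD complex. Whether the members differed from these ATPases was not tested.

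**Figure D5:**
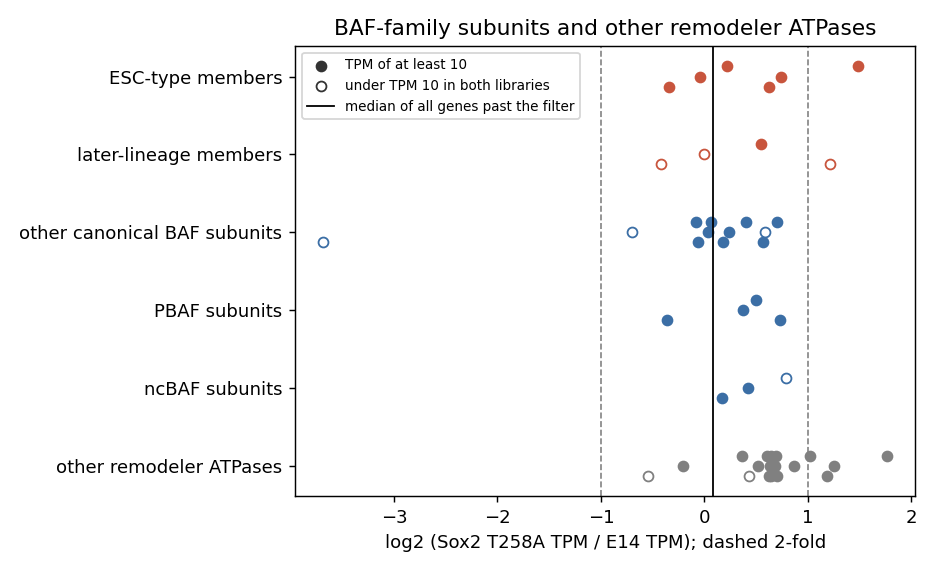
Log2 ratio of TPM, Sox2 T258A over E14, for the ESC-type and later-lineage members and for the lists of other BAF-family subunits and other remodeler ATPases, 1 point per gene (open where TPM was under 10 in both libraries), with a line at the median of all genes. The medians of the genes that passed the TPM minimum are 0.54 for the members, 0.18 for other canonical BAF, 0.44 for PBAF, 0.30 for the non-canonical form and 0.67 for the other ATPases.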

How the data were processed

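PolyA RNA-seq of 1 library of E14 ESC and 1 of Sox2 T258A ESC was used. The authors deposited, per gene, read counts, FPKM and TPM values for mm10. Per the labels, reads passed bcl2fastq 2.20.0, Trimmomatic, HISAT2 2.1.0 and StringTie 2.1.3b; the labels also name hg19, and the handling of strand and of reads with several positions is not given in the sources used here. TPM divides by transcript length, so genes are compared by level on that scale only.

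The ratio of deposited TPM, T258A over E14, was computed for all genes and called past 2-fold or 1.5-fold where TPM was at least 10 in at least 1 library. Exact binomial (Clopper-Pearson) or Wald intervals at 95% came from the counts and were placed on the TPM scale. A floor of 3 reads, 0.0498 CPM in E14 and 0.0673 in T258A, is given for reference only, and no ratio or count used it. Transcript lengths and GC content came from GENCODE M21, matched by RefSeq ID for 9033 of the 9094 genes that passed (99.3%), and their trend was removed as medians over 20 bins each. Gene spans and promoter windows came from RefSeq (GRCm38.p6), in which 24462 of the 24532 gene IDs were found.

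R 4.3.3, edgeR 4.0.16 (TMM) and DESeq2 1.42.0 (median-of-ratios) served for scaling alternatives only, with Python 3.11.15, pandas 2.3.3, numpy 2.4.6, scipy 1.17.1 and matplotlib 3.10.9. Scripts were tested on simulated data. The members and lists were chosen with earlier results of these data known. By rule, named genes were the 10 members, their paralogs (Smarcd2, Actl6b, Dpf1, Dpf3, Phf10), listed genes past 1.5-fold with TPM of at least 10, the highest and lowest of each list, and any marker; Smarcb1, Arid2, Ss18, Ss18l1, Chd5 and Gltscr1 were named outside this rule, after their values were seen, and Chpf2 and Mrpl47 for their overlap.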

Additional observations from a re-analysis of the deposited data

How the results depend on the processing

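No paired analysis was possible because each genotype had 1 library, and no library could be left out. With the TPM minimum at 1, at 5 or absent, 2 members in place of 1 were past 2-fold (Arid1b was added) and 4 in place of 3 past 1.5-fold, while the share of all genes past 2-fold went from 8.24% to 16.4% at a minimum of 1 and 28.8% with none, and that past 1.5-fold from 24.7% to 45.01% with none. With the length and GC trend removed, 1 member was past 1.5-fold, beside 20.5% of all genes. With TMM scaling, CPM, FPKM or centring on the median gene, 2 members were. The shares of all genes under those settings were 24.2%, 23.6%, 23.6% and 23.9%. The members' median log2 ratio of 0.54 was 0.41 with CPM, 0.40 with FPKM and 0.42 without the trend.

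The log2 difference of Smarcc2 to Smarcc1 went from -0.20 to -0.0314 without the trend, and that of Arid1b to Arid1a from -0.28 to -0.43 with a pseudocount of 1. Other BAF-family subunits more than 1.5-fold higher numbered 1 in place of 2 without the trend (11.5% of all genes), an alternative chosen after seeing the data. Other ATPases numbered 8 in place of 13 after centring, where the share of all genes more than 1.5-fold higher was not computed. Without the trend they numbered 4 (11.5% of all genes), also an alternative chosen after seeing the data. The log2 ratio of Smarcd1 reversed from -0.04 to 0.019 without the trend. Over 9 alternatives for 10 members, 55 ratios stayed within the counting interval and 1 reversed. The other 34 moved outside the interval, nearer to or farther from 0, with the sign kept. The ratio of Arid1a ranged from 1.15 to 1.49 on the log2 scale, that of Arid1b from 0.79 to 1.21 and that of Smarca2 from -0.62 to -0.22. Depth limited Smarca2, Smarcd3, Dpf3 and Actl6b most.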
